A study of Homo sapiens with 3 samples.

Results

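The 9 genes described here encode parts of the pericellular proteolysis machinery and were measured in cultured bladder cancer cells after depletion of CDCA3, a regulator of mitotic entry. They are the matrix metalloproteinases (MMPs) MMP1, MMP7, MMP9, MMP10 and MMP14, the tissue inhibitors of metalloproteinases TIMP1 and TIMP2, the urokinase-type plasminogen activator PLAU and its receptor PLAUR. They were taken by gene symbol, 1 RefSeq transcript per gene (the one with the most reads over all libraries), and all 9 were found among the 19225 genes of the deposited table. The cells are 5637, an established human bladder cancer line labelled as wild type, and every library came from cells transfected with siRNA by a lipid reagent. The control siRNA (siNC) was given to the cells of 1 library, and siRNA against CDCA3 to those of the other 2 libraries, named siCDCA3-1 and siCDCA3-2. The series set out to find genes downstream of CDCA3 in bladder cancer. Whether these 2 differ in siRNA sequence or are repeats with the same siRNA is not stated in the labels, nor whether they are separate cultures, so p-values reflect only how far these libraries spread, which may be technical.

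MMPs are zinc-dependent endopeptidases made as inactive zymogens, and most are secreted. Together they cleave collagens, gelatins, proteoglycans and other proteins of the extracellular matrix, and TIMPs block them by binding the active site. MMP14 differs in being anchored in the plasma membrane, where it activates the zymogen of the gelatinase MMP2 in a complex that uses TIMP2 as the adaptor. In the plasminogen system, PLAU held by PLAUR at the cell surface converts plasminogen to plasmin, which degrades fibrin and activates several MMP zymogens. Both systems are studied in bladder cancer for their part in invasion of the bladder wall.

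The libraries held 50912733 (siNC), 40420563 (siCDCA3-1) and 62389922 (siCDCA3-2) gene-level counts. RPKM (reads per kilobase of transcript) was scaled to a library total that is larger than these counts and is given with the processing. CDCA3 had RPKM of 5.52 (siNC), 0.574 (siCDCA3-1) and 1.40 (siCDCA3-2). The targeted transcript was thus lower in both siCDCA3 libraries (unadjusted edgeR p of 0.00246, adjusted p of 0.9997). These are bulk libraries, in which fewer cells of a kind and less RNA per cell cannot be told apart. The epithelial and urothelial markers EPCAM, CDH1, KRT5, KRT17, KRT8, KRT18, KRT19, GATA3 and TP63 were all above the minimum mean RPKM of 1, with a summed RPKM of 1426 to 2286. The 4 endothelial markers and 6 of 8 leukocyte markers stayed under an RPKM of 0.1 in all 3 libraries. The other 2 leukocyte markers did not: in the order siNC, siCDCA3-1, siCDCA3-2, CD68 had RPKM of 1.42, 1.94 and 0.993, and CD14 had 0.530, 0.722 and 0.350. Over the 10153 genes at or above that minimum, the median log2 ratio of RPKM to siNC was -0.083 in siCDCA3-1 and 0.057 in siCDCA3-2, a shift of 0.120 between the siCDCA3 libraries that the ratios below include.

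Of the 9 genes, 7 passed the minimum mean RPKM of 1. MMP7 lay just under it at 0.997, and MMP9 was close to 0. In the quasi-likelihood test of edgeR, adjusted by Benjamini-Hochberg over the 10153 genes, 0 of the 7 passed the threshold of 0.05. Over all genes tested, 0.0295% passed as lower and 0% as higher. At an unadjusted p under 0.05 edgeR also gave 0 of the 7, against 0.965% of all genes lower and 0.355% higher. DESeq2 and limma called 0 of the 7 after adjustment. At an unadjusted p under 0.05 DESeq2 gave 2 (MMP1 and MMP14), beside 155 of the 10153 genes. For limma this was 1 (MMP14), beside 121 of the 10153 genes. Without the filter on low values, edgeR gave 2 of the 9 (MMP1 and MMP14) at an unadjusted p under 0.05, beside 334 of 18761 genes. The lone siNC library was assumed to vary like the siCDCA3 libraries, and with a single residual degree of freedom a p above the threshold is not evidence of an equal level.

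The 7 genes took separate patterns over the libraries. MMP14 and PLAU were below siNC in both siCDCA3 libraries, a position held by 27.8% of all genes tested. PLAUR and TIMP2 were above siNC in both, as were 23.6% of all genes, although TIMP2 differed from siNC by less than its counting error in siCDCA3-1. For MMP1, MMP10 and TIMP1, siNC lay between the siCDCA3 libraries, as it did for 48.5% of all genes. In all 3 of these siCDCA3-1 was below siNC and siCDCA3-2 above it, an order found in 30.8% of all genes. The counts are thus near the background shares. The median log2 ratio of the 7 was -0.52 in siCDCA3-1 and 0.50 in siCDCA3-2, and both use the same siNC library.

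**Figure D1:**
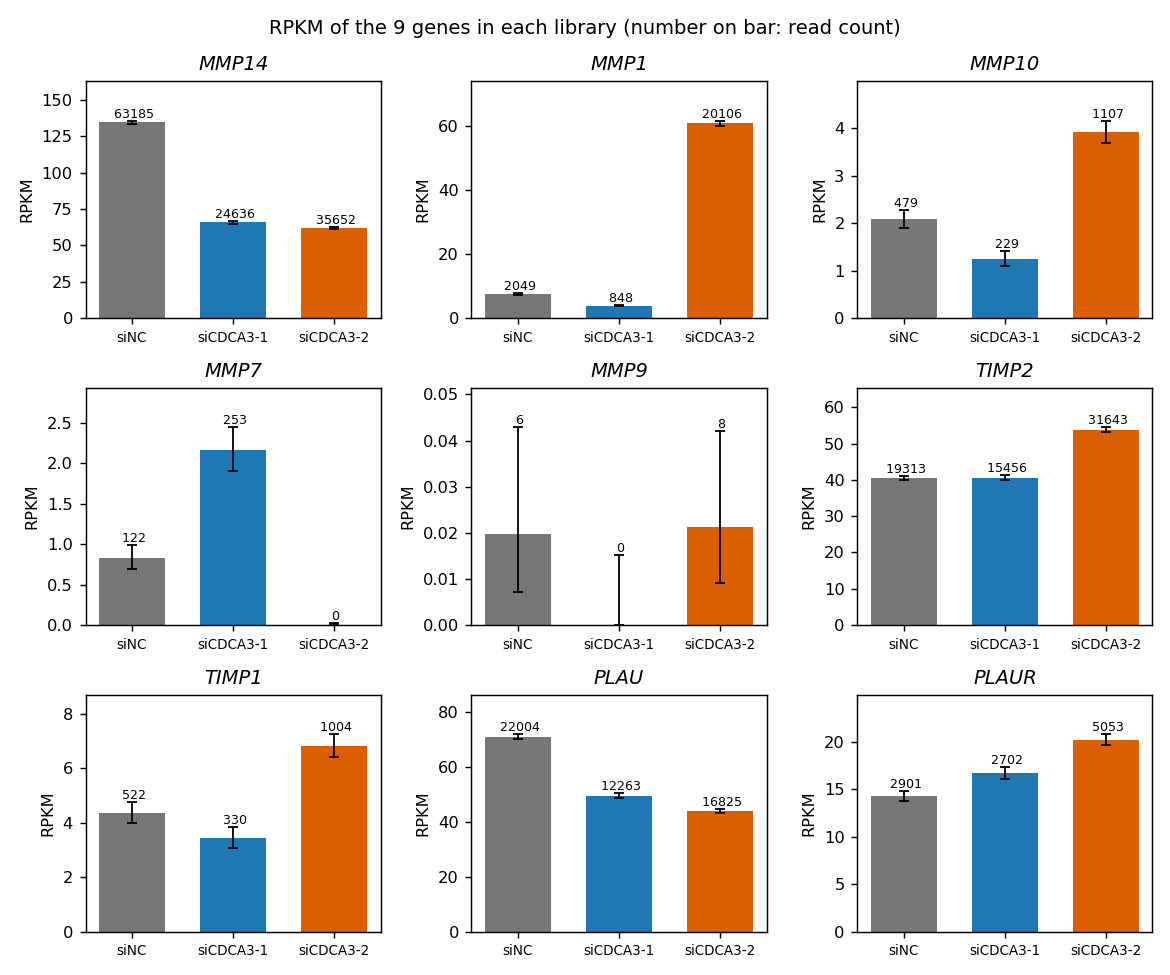
RPKM (y axis, linear from 0, a different scale in each panel) of the 9 genes in the siNC, siCDCA3-1 and siCDCA3-2 libraries, 1 bar per library, with exact 95% Poisson intervals that cover counting error only and the read count above each bar. MMP14 and PLAU are highest in siNC, MMP1 and MMP10 are highest in siCDCA3-2, and MMP7 has 0 counts in siCDCA3-2.

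MMP14, the membrane-type MMP and the most abundant of the 9 genes in siNC, was at a similar level, below that of siNC, in both siCDCA3 libraries. Its RPKM was 135 (siNC), 65.8 (siCDCA3-1) and 61.7 (siCDCA3-2), from 63185, 24636 and 35652 counts. Both siCDCA3 values lay below the siNC value. The siCDCA3-2 value was 0.938 times the siCDCA3-1 value (0.923 to 0.954). MMP14 was 2.05-fold lower than siNC in siCDCA3-1 and 2.18-fold lower in siCDCA3-2, 48.8% (95% counting interval 48.1% to 49.6%) and 45.8% (45.2% to 46.4%) of the siNC level. By edgeR the log2 fold change was -1.06 ± 0.51 (SE), with an unadjusted p of 0.0562 and an adjusted p of 0.9997. MMP14 was the only one of the 7 that was at least 2-fold lower in both libraries, a size reached by 1.02% of all genes, and 0 of the 7 were at least 2-fold higher in both, against 0.364% of all genes. With TMM scaling the log2 ratio in siCDCA3-1 was -0.95 and this 2-fold count was 0. MMP14 (NM_004995.3) spans positions 22836585 to 22847758 of chromosome 14 in GRCh38, and no other gene of the GENCODE annotation used overlaps it.

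PLAU showed the same order of libraries as MMP14 with a smaller difference. The serine protease had RPKM of 70.8 (siNC), 49.4 (siCDCA3-1) and 44.0 (siCDCA3-2). Both siCDCA3 libraries were lower, at 69.8% (68.3% to 71.4%) and 62.1% (60.9% to 63.4%) of siNC. By edgeR the log2 fold change was -0.58 ± 0.50 (SE), adjusted p = 0.9997. All 3 PLAU transcripts in the table gave log2 ratios of -0.53 to -0.52 in siCDCA3-1 and -0.69 in siCDCA3-2. Of the exon bases of PLAU (chromosome 10, 73908832 to 73917494), 31.1% are shared with C10orf55 on the opposite strand. C10orf55 had RPKM of 5.48, 4.01 and 3.60 in the order siNC, siCDCA3-1, siCDCA3-2, and since whether reads were counted by strand was not given, reads of the 2 genes cannot be told apart there.

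PLAUR, the membrane-anchored receptor that holds PLAU at the cell surface, did not share the order of its ligand. Its RPKM was 14.3 (siNC), 16.7 (siCDCA3-1) and 20.3 (siCDCA3-2). The siCDCA3 values were 1.17 (1.11 to 1.23) and 1.41 (1.35 to 1.48) times the siNC value, so siNC was the lowest library. By edgeR the log2 fold change was 0.37 ± 0.49 (SE), adjusted p = 0.9997. The 4 PLAUR transcripts ran from 0.17 to 0.22 in siCDCA3-1 and from 0.42 to 0.50 in siCDCA3-2 as log2 ratios. With the ligand lower and the receptor higher, the RPKM of PLAU was 4.95 times that of PLAUR in siNC, 2.96 times in siCDCA3-1 and 2.17 times in siCDCA3-2.

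TIMP2, both an inhibitor of MMPs and the adaptor of MMP14, was the more abundant inhibitor. It had RPKM of 40.5 (siNC), 40.6 (siCDCA3-1) and 53.9 (siCDCA3-2). The siNC and siCDCA3-1 values did not differ beyond counting error (ratio 1.002, 0.981 to 1.02, or a log2 ratio of 0.09 with TMM scaling), and only siCDCA3-2 stood above siNC, by 1.33 times (1.31 to 1.35). By edgeR the log2 fold change was 0.22 ± 0.51 (SE), adjusted p = 0.9997. The RPKM of MMP14 was 3.33 times that of TIMP2 in siNC, 1.62 times in siCDCA3-1 and 1.15 times in siCDCA3-2. MMP2, the gelatinase activated by this pair, followed neither partner: its RPKM was 21.5, 36.8 and 11.8, highest in siCDCA3-1 and lowest in siCDCA3-2 (edgeR log2 fold change 0.22 with a standard error of 0.65, adjusted p = 0.9997).

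**Figure D2:**
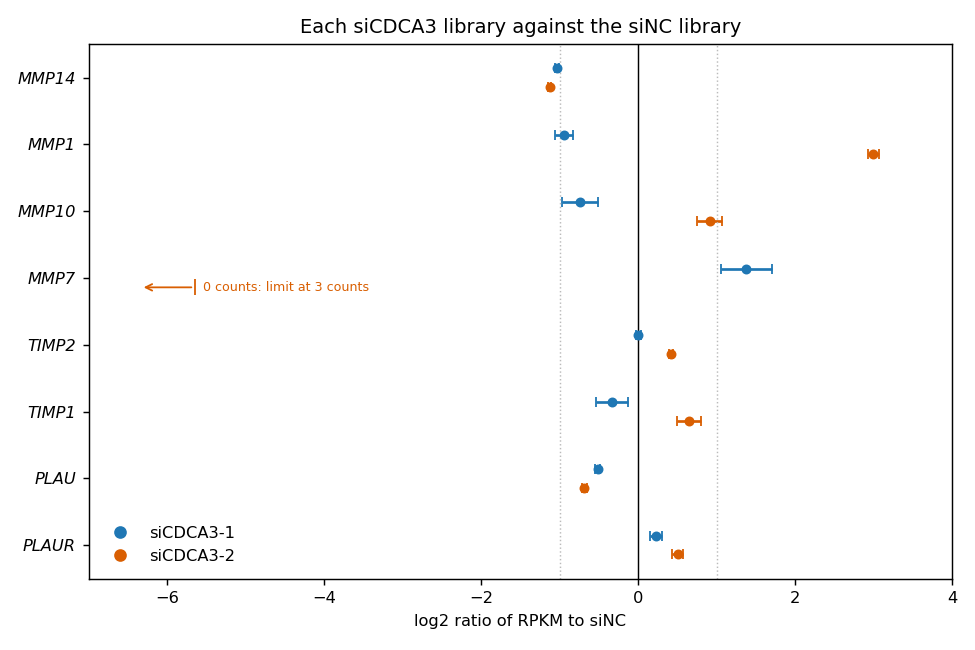
Log2 ratio of RPKM to siNC (x axis) in siCDCA3-1 and siCDCA3-2 for 8 of the 9 genes (y axis), with exact 95% counting intervals and dotted lines at a 2-fold difference; MMP9, with at most 8 counts, is left out. MMP14 and PLAU lie left of 0 in both libraries, MMP1, MMP10 and TIMP1 lie on opposite sides, and the arrow marks the limit that 3 counts set for MMP7 in siCDCA3-2.

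MMP1, the interstitial collagenase that cleaves fibrillar collagens, separated the siCDCA3 libraries more than any other of the 7 genes. It had RPKM of 7.64 (siNC), 3.96 (siCDCA3-1) and 60.9 (siCDCA3-2), from 2049, 848 and 20106 counts. The siCDCA3-2 library stood far above the others, and siCDCA3-1 was the lowest. MMP1 (NM_002421.3, chromosome 11, 102789919 to 102798160) was 1.93-fold lower than siNC in siCDCA3-1 (51.8%, 47.8% to 56.2%) and 7.97 times siNC in siCDCA3-2 (7.61 to 8.34). Only 1 of the 7, MMP1, was at least 2-fold higher than siNC in siCDCA3-2, against 3.69% of all genes, and its ratio ranked 3 among the 10153 genes. The siCDCA3 libraries were 15.4-fold apart (14.4 to 16.5), a distance that ranked 21 among all genes tested.

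Because its siCDCA3 libraries went opposite ways, the fitted difference of MMP1 rests on siCDCA3-2. By edgeR the log2 fold change was 2.03 ± 1.05 (SE), with an unadjusted p of 0.0748 and an adjusted p of 0.9997. On the log2(RPKM + 1) scale limma gave MMP1 a log2 difference of 1.02, with an unadjusted p of 0.4419 and an adjusted p of 1. Without siCDCA3-2 the TMM-scaled log2 ratio was -0.87, and without siCDCA3-1 it was 2.93, both values with no test. The pair of MMP1 transcripts gave log2 ratios of -0.95 and -0.92 in siCDCA3-1 and of 2.99 and 3.09 in siCDCA3-2. The RPKM of MMP1 was 0.0567 times that of MMP14 in siNC and 0.0602 times in siCDCA3-1, but 0.987 times in siCDCA3-2. As a share of the summed RPKM of 23 MMP genes, MMP1 made up 3.78%, 2.82% and 41.1%, and MMP14 made up 66.6%, 46.9% and 41.7%.

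MMP10, stromelysin 2, and TIMP1, a secreted inhibitor, had the library order of MMP1 over a narrower range. MMP10 had RPKM of 2.09 (siNC), 1.25 (siCDCA3-1) and 3.92 (siCDCA3-2), from 479, 229 and 1107 counts. Its siCDCA3 libraries were 3.13-fold apart (2.72 to 3.63). MMP1 and MMP10 were the 2 of 7 at least 2-fold higher in siCDCA3-2 than in siCDCA3-1, a size reached by 9.77% of all genes. TIMP1 had RPKM of 4.37, 3.46 and 6.82, that is 0.792 times siNC in siCDCA3-1 (0.688 to 0.911) and 1.56 times in siCDCA3-2 (1.40 to 1.74). The edgeR log2 fold changes were 0.29 with a standard error of 0.74 for MMP10 and 0.23 with a standard error of 0.68 for TIMP1 (edgeR adjusted p = 0.9997 for each). Without siCDCA3-2 both TMM-scaled log2 ratios were below 0, at -0.66 for MMP10 and -0.25 for TIMP1. The RPKM of MMP1 was 1.75 times that of TIMP1 in siNC, 1.15 times in siCDCA3-1 (95% counting interval 1.007 to 1.30) and 8.93 times in siCDCA3-2.

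MMP7, or matrilysin, a small MMP of epithelial cells, had the reverse order. It had 122 counts in siNC, 253 in siCDCA3-1 and 0 in siCDCA3-2, an RPKM of 0.831, 2.16 and 0. The siCDCA3-1 level was 2.60 times that of siNC (2.09 to 3.25). With 3 counts as the floor of the siCDCA3-2 library (an RPKM of 0.0166), MMP7 was at least 50.1-fold lower there than in siNC and at least 130-fold lower than in siCDCA3-1. Of the 11680 genes with at least as many siNC counts as MMP7, it was the only one with 0 counts in siCDCA3-2, a search made after its values were seen. The fibroblast marker list had a summed RPKM of 7.23, 10.05 and 2.39 in the order siNC, siCDCA3-1, siCDCA3-2, mostly from COL1A1, and 4 of its 7 genes (COL1A2, COL3A1, DCN and PDGFRA) stayed under 0.1. Within it LUM, named after its values were seen, had RPKM of 0.123, 1.47 and 0.00294, the same order as MMP7. COL1A1, DCN and PDGFRB had this order too, whereas COL1A2, COL3A1 and PDGFRA were highest in siCDCA3-2. The order was not particular to fibroblast markers. The epithelial markers CDH1, KRT8, KRT18 and GATA3 had it, unlike the other epithelial markers, and so did the leukocyte markers CD68 and CD14. Over all genes tested, siNC lay between the siCDCA3 libraries in 48.5%, with 30.8% in the order opposite to that of MMP7. The part of fibroblast genes in the MMP7 values was not tested.

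MMP9, gelatinase B, was barely detected, with 6 counts in siNC, 0 in siCDCA3-1 and 8 in siCDCA3-2. The RPKM was 0.0197, 0 and 0.0213, and a floor of 3 counts in siCDCA3-1 is an RPKM of 0.0123. A difference of either siCDCA3 library from siNC was not detectable at this depth, with ratios of 0 (0 to 1.06) in siCDCA3-1 and 1.08 (0.330 to 3.79) in siCDCA3-2. Between the siCDCA3 libraries, 8 counts against 0 gave a 95% counting interval of the ratio whose lower limit was 1.11, just above equality. Of its exon bases, 18.4% are shared with an antisense gene. The siCDCA3-2 library also held more reads in near-silent genes generally. Of 5830 genes with a mean RPKM under 0.05, 3459 had a count in siNC, 3299 in siCDCA3-1 and 5125 in siCDCA3-2. These numbers are not scaled for depth, and siCDCA3-2 was the library with the most counts. The summed RPKM of these genes, which is scaled to the library total, was 42.9, 48.6 and 102.

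MMP7, MMP10 and MMP1 are neighbours in a cluster of 9 MMP genes over 435 kb of chromosome 11 (102520508 to 102955732 in GRCh38). In order along the chromosome these are MMP7, MMP20, MMP27, MMP8, MMP10, MMP1, MMP3, MMP12 and MMP13. MMP20, MMP27, MMP8 and MMP12 had at most 8 counts in any library, and MMP3, stromelysin 1, had 0, 1 and 30. MMP13, a collagenase at the end of the cluster, had RPKM of 2.54 (siNC), 1.21 (siCDCA3-1) and 0.707 (siCDCA3-2), lower in both siCDCA3 libraries (edgeR log2 fold change -1.38 with a standard error of 0.66, adjusted p = 0.9997). The expressed genes of the cluster thus took 3 different orders over the libraries. MMP13 was added to the account after its values were seen.

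**Figure D3:**
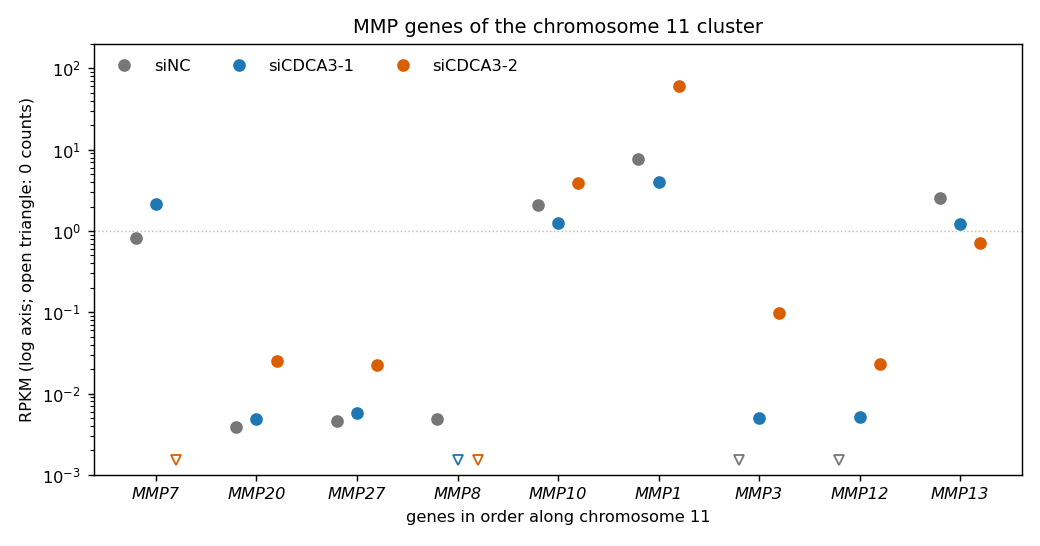
RPKM (y axis, log scale) of the 9 MMP genes of the chromosome 11 cluster in their order along the chromosome (x axis), 1 point per library, with open triangles for 0 counts and a dotted line at an RPKM of 1. MMP1 and MMP10 are highest in siCDCA3-2, MMP7 is highest in siCDCA3-1 and MMP13 is highest in siNC, while the other genes stay under 0.1.

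Similarity between these paralogs could in principle move reads from gene to gene. Of all 50-base windows of MMP1 and MMP7 transcripts, 0 occurred in transcripts of another gene. Of the 1756 windows of MMP10, 59 (3.36%) occurred in MMP3. TIMP2 shared 2.68% of its windows with CEP295NL, which lies within it and had an RPKM of at most 0.151. The other 5 of the 9 genes shared none. Windows were compared on the strand of each transcript only, so sharing with genes on the opposite strand was not tested. Such overlap covers 31.1% of the exon bases of PLAU and 18.4% of those of MMP9. Of the exon bases of MMP1, 7.6% overlap the pseudogene WTAPP1 on the opposite strand.

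The promoters of MMP7 and MMP10, genes of the cluster with opposite library orders, are shown with that of MMP14, which was low in both siCDCA3 libraries. Each line gives the 250 bases before the start site from the RefSeq table (GRCh38.p14), on the strand of the gene, with matches to TGANTCA in capitals. TGANTCA, with any base in the middle, was searched on both strands. It is a looser form of TGA(C/G)TCA, the consensus bound by AP-1, the FOS and JUN dimer known as a regulator of MMP promoters. Promoters of 6 of the 9 genes were matched in the table by symbol, with MMP1, MMP9 and TIMP2 not among them.
MMP7 (chr11:102530748-102530997, minus strand): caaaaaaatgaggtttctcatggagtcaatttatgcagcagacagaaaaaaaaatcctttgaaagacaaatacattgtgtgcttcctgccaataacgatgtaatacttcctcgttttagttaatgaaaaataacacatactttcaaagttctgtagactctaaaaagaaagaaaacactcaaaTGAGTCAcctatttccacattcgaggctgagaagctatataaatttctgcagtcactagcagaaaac
MMP10 (chr11:102780629-102780878, minus strand): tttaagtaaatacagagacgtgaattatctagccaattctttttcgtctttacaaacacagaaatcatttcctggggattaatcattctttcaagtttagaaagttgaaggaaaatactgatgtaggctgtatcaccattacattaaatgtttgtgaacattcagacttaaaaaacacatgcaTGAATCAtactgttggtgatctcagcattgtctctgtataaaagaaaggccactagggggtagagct
MMP14 (chr14:22836335-22836584, plus strand): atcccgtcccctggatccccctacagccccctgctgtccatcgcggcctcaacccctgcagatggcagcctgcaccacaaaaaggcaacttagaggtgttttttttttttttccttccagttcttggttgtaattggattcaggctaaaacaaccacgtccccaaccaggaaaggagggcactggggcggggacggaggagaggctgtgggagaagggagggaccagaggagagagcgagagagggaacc
MMP7 and MMP10 each held 1 match, whose first base lay 67 bases before the start site in both. It read TGAGTCA in MMP7 and TGAATCA in MMP10, and the latter matches only the looser form. Both also held TATAAA, 30 and 31 bases before the start site. MMP14 held neither motif in this window. Among 27305 promoters of this length, 6.6% held TGANTCA and 7.17% held TATAAA. PLAUR held 1 match to TGANTCA, 186 bases before its start site, and TIMP1 and PLAU held none. A match describes letters only, not a bound site.

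By level, the 9 genes ran from near 0 to among the most abundant of all genes tested. In siNC the order of RPKM was MMP14, PLAU, TIMP2, PLAUR, MMP1, TIMP1, MMP10, MMP7 and MMP9. MMP14 exceeded 98.4% of the 10153 genes in siNC, 96.6% in siCDCA3-1 and 96.0% in siCDCA3-2. PLAU exceeded 96.7%, 95.1% and 94.1%, and TIMP2 93.3%, 93.9% and 95.1%. MMP1 went from above 61.0% of genes in siNC and 39.8% in siCDCA3-1 to above 95.9% in siCDCA3-2, where its RPKM did not differ from that of MMP14 beyond counting error (ratio 0.987, 0.970 to 1.004).

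**Figure D4:**
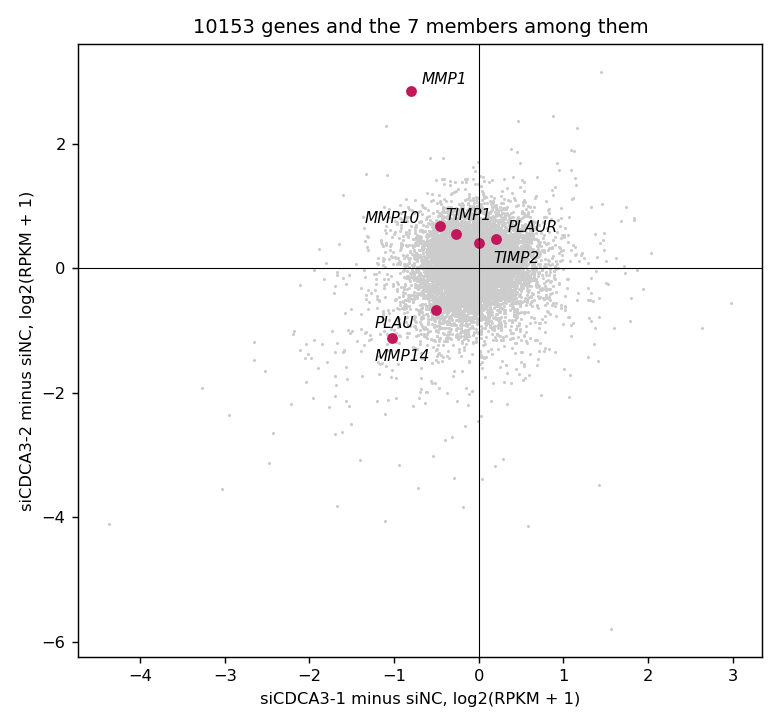
Difference from siNC in log2(RPKM + 1) in siCDCA3-1 (x axis) and siCDCA3-2 (y axis) for 10153 genes (grey) and the 7 tested genes of the list (coloured); both axes use the same siNC library. MMP1 stands apart at -0.80 and 2.84, and MMP14 (-1.02 and -1.11) and PLAU (-0.51 and -0.68) lie in the lower left.

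Of the 4 among the 7 tested genes that lay on the same side of siNC in both siCDCA3 libraries, MMP14 had the largest difference from siNC in its less changed library, and it was therefore the gene to which others were compared. Among the 5 genes nearest to it, by Euclidean distance over the pair of log2(RPKM + 1) differences among the 5499 genes whose mean RPKM was 5 or more, were SMOX, H1FX, CALCOCO2 and KRT5, at distances of 0.079 to 0.088 from values of 3 libraries. KRT5, a keratin of basal epithelial cells, had RPKM of 421 (siNC), 218 (siCDCA3-1) and 199.9 (siCDCA3-2). The polyamine enzyme SMOX had 38.3, 17.6 and 17.8, the linker histone gene H1FX 112, 56.5 and 54.0, and the autophagy receptor CALCOCO2 13.7, 6.49 and 5.47.

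The other genes of the pathway were taken from lists of MMPs, MMP inhibitors and partners, the plasminogen system and other pericellular proteases. Of 65 genes, the 9 included, 37 had a mean RPKM of at least 1, and 0 of the 37 passed the edgeR test after adjustment in either direction (1 at an unadjusted p under 0.05, 0 by DESeq2 or limma after adjustment). Below siNC in both siCDCA3 libraries were 13 of the 37 (35.1%), above in both were 6 (16.2%), and 18 (48.6%) lay on opposite sides. The shares over all genes tested are those given above, 27.8%, 23.6% and 48.5%. Median log2 ratios over the 37 were -0.16 in siCDCA3-1 and -0.21 in siCDCA3-2.

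Among other MMPs, MMP28, or epilysin, had RPKM of 23.3 (siNC), 15.6 (siCDCA3-1) and 2.01 (siCDCA3-2), lowest in siCDCA3-2 (edgeR log2 fold change -1.33 with a standard error of 0.81, adjusted p = 0.9997). MMP15, another membrane-type MMP, had 5.43, 7.31 and 3.02. Of the 9 MMP genes tested, 4 were below siNC in both libraries and 0 above in both, beside 27.8% and 23.6% of all genes tested. MMP16, a membrane-type MMP under the minimum mean RPKM of 1 and named after its values were seen, was above siNC in both, with 171 (siNC), 472 (siCDCA3-1) and 1269 (siCDCA3-2) counts and log2 ratios of 1.79 and 2.59. TIMP3, an inhibitor held in the matrix, had RPKM of 20.2, 12.2 and 13.1, lower in both siCDCA3 libraries (edgeR log2 fold change -0.67 with a standard error of 0.49, adjusted p = 0.9997). BSG, the surface glycoprotein known as an inducer of MMPs, had 226, 185 and 199.

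In the plasminogen system, the plasminogen-binding pair ANXA2 and S100A10 was above siNC in both siCDCA3 libraries. ANXA2 had RPKM of 433, 519 and 453 and S100A10 had 78.5, 97.3 and 143 in the order siNC, siCDCA3-1, siCDCA3-2. The PLAU inhibitor SERPINB2 had 14.2, 13.1 and 25.9, and the protease inhibitor SERPINE2 had 34.3, 28.6 and 22.4. PLAT, the tissue-type plasminogen activator, had 7.21, 3.18 and 0.932 and was the only gene of the 37 with an unadjusted p under 0.05 in edgeR. Its log2 fold change was -1.76 ± 0.66 (SE), with an unadjusted edgeR p of 0.0199 and an adjusted p of 0.9997, and PLAT was chosen after its values were seen. Plasminogen itself, PLG, had an RPKM of at most 0.0211.

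Other pericellular proteases mostly differed in sign between the siCDCA3 libraries, with 8 of 12 on opposite sides of siNC beside 48.5% of all genes tested. The lysosomal proteases CTSD (239, 380 and 107) and CTSB (23.3, 25.3 and 8.66) were highest in siCDCA3-1 and lowest in siCDCA3-2 by RPKM. CTSL had the reverse order, with RPKM of 12.5, 10.01 and 18.2. The membrane serine protease ST14 had 30.2, 37.6 and 36.1, and its inhibitors SPINT1 and SPINT2 had 38.0, 49.1 and 25.95, and 119, 106 and 127. The sheddase ADAM10 had RPKM of 16.4, 16.2 and 21.5, and the sheddase ADAM17 had 8.13, 7.32 and 7.00. ADAM9 had 10.2, 13.3 and 17.2, above siNC in both siCDCA3 libraries. ADAM15 had 33.1, 25.0 and 31.8, below siNC in both.

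**Figure D5:**
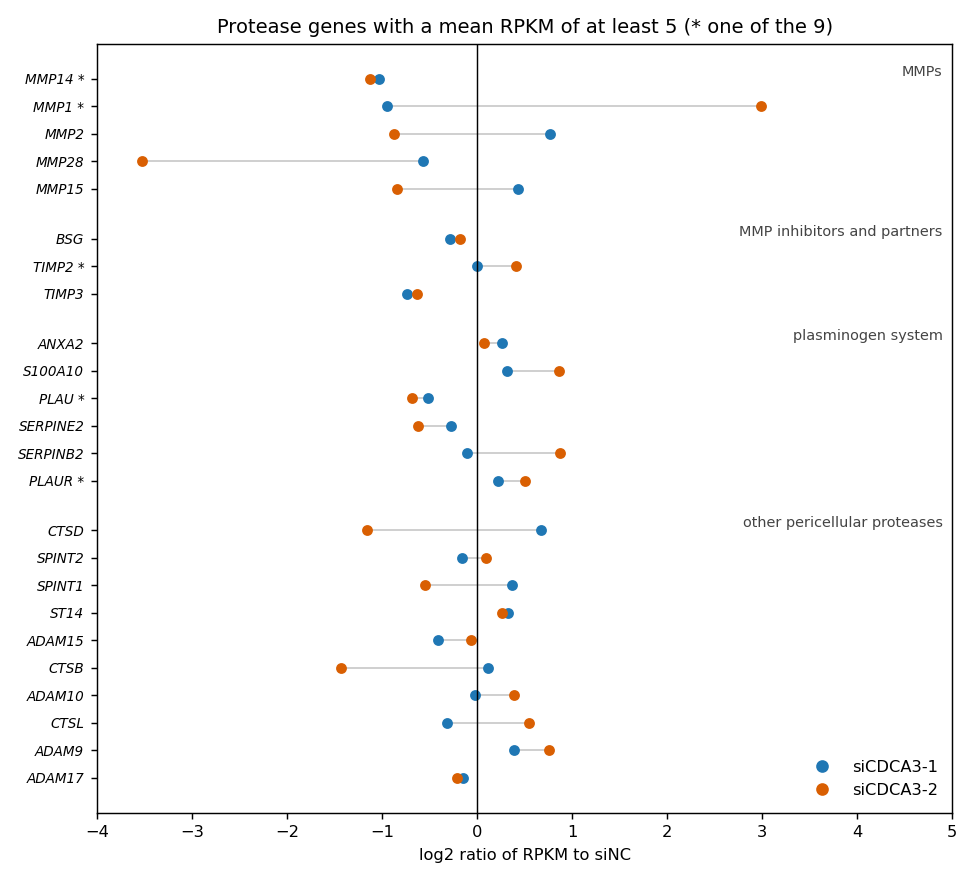
Log2 ratio of RPKM to siNC (x axis) in siCDCA3-1 and siCDCA3-2 for the 24 protease pathway genes whose mean RPKM was 5 or more (y axis), grouped by list, with a line joining the libraries and an asterisk on 5 of the 9 genes. MMP1 and MMP28 have the longest lines, while MMP14, TIMP3, BSG, PLAU and ADAM17 have both points left of 0 and close together. SERPINE2, ADAM15 and MMP28 also have both points left of 0.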

How the data were processed

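RNA was read as 150-base pairs after removal of ribosomal RNA, per the labels' protocols. The submitters' processing notes name Trimmomatic 0.36, FastQC, HISAT2 and HTSeq and list a human (hg38) and a mouse build without roles; 98.6% of the accessions matched human RefSeq, so GRCh38 positions are given. Per the file headers, the authors deposited a whole-number count per RefSeq transcript and RPKM; from the values, RPKM is the count divided by transcript length and by 1 total for each library. As recovered from the values, that total was 130459616 (siNC), 104153360 (siCDCA3-1) and 160640877 (siCDCA3-2). It is larger than the total gene-level counts, which were 50912733 (siNC), 40420563 (siCDCA3-1) and 62389922 (siCDCA3-2).

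The transcript with the most counts stood for each gene. edgeR 4.0.16 (R 4.3.3, TMM, quasi-likelihood, two-sided, Benjamini-Hochberg) compared 2 siCDCA3 libraries with 1 siNC library over the 10153 genes whose mean RPKM was 1 or more. It was also run on simulated data with less spread than these libraries, where the common dispersion was 0.126, and with larger changes than that of MMP14. That run therefore cannot show its power here. Each standard error was taken as the size of the log2 fold change divided by the root of its F statistic. Ratios of single libraries have exact 95% Clopper-Pearson intervals on the share of counts, which cover counting error only; reads carry no molecular identifiers. Alternatives were DESeq2 1.42.0, limma 3.58.1 on log2(RPKM + 1), other scaling, filters, pseudocounts and transcripts, and each siCDCA3 library left out. Named genes were all 9 members, CDCA3, and pathway genes whose mean RPKM was 5 or more, besides those said to be chosen later. The MMP genes of the chromosome 11 cluster and PLG were named outside this rule. The members and lists were chosen with earlier results of these data known. Of the 5 genes nearest to MMP14, 1 is not reported here.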

Additional observations from a re-analysis of the deposited data

How the results depend on the processing

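Over all genes edgeR called 3, against 10 with DESeq2, 0 with limma (121 at an unadjusted p under 0.05), 22 with no filter on low values and 0 with a minimum mean RPKM of 5 (74 at an unadjusted p under 0.05); the causes were not tested. The count of the 9 genes called after adjustment was 0 under each alternative run, with MMP1 closest at an adjusted p of 0.3144 without the filter in edgeR (0.3144 to 1 over its alternatives). The count at least 2-fold lower in both siCDCA3 libraries, 1 (MMP14), was 0 with TMM-scaled counts and 0 with median-of-ratios scaled counts, since the log2 ratio of MMP14 in siCDCA3-1 became -0.95 and -0.96. Leaving out a siCDCA3 library gave values with no test, from -0.87 to 2.93 for MMP1, from -0.66 to 0.85 for MMP10 and from -0.25 to 0.58 for TIMP1, the lower value without siCDCA3-2 each time. On the log2(RPKM + 1) scale limma gave 1.02 for MMP1 (edgeR 2.03), 0.11 for MMP10 (edgeR 0.29) and 0.14 for TIMP1 (edgeR 0.23). MMP14, PLAU, PLAUR and TIMP2 kept their direction under every alternative run. Counts of calls with a library left out were not run, since 1 library against 1 leaves no residual degrees of freedom. No paired analysis was possible because the siNC library carries no replicate number and is alone in its group. Depth limits MMP9. For MMP7 in siCDCA3-2, the library with the most counts, depth sets only the bound on how much lower the gene was.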
